A study of Homo sapiens with 6 samples.

Results

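The genes described here make, sense or remove prostaglandin E2 (PGE2), and they were followed in MDA-MB-231, an established human cell line of triple-negative breast cancer, grown in droplets of collagen I. They are 9 genes chosen by name out of 61228 rows of the count table: PLA2G4A, PTGS1, PTGS2, PTGES, PTGES2, PTGES3, PTGER2, PTGER4 and HPGD. All 9 were found, and 8 passed the filter on low counts; PTGS1 did not. The study has 6 poly(A) RNA-seq libraries. The 3 control libraries come from cells nucleofected with the Cas9 nuclease and control guide RNAs. The 3 knockout libraries (KO) come from cells nucleofected with Cas9 and guides for ETV1, ETV4 and ETV5, which encode related ETS transcription factors; their titles name ETV4 alone. Both groups therefore share the cell line, Cas9, the nucleofection and the collagen culture. The labels give the KO libraries an unexplained name, c39, and it is not known whether that is 1 clone, in which case knockout and clone cannot be told apart. The collagen was used at 1 of 2 concentrations, and which sample had which is not stated in the labels. The labels do not say whether replicates are separate cultures, so spreads and p-values cover only these samples and may be technical.

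Prostaglandins are short-lived lipid signals. A phospholipase releases arachidonic acid from membranes, a cyclooxygenase turns it into the intermediate PGH2, a terminal synthase makes PGE2 from PGH2, and PGE2 acts on a family of receptors at the cell surface, of which EP2 and EP4 raise cyclic AMP. Cells take PGE2 up again and oxidise it. In breast and other carcinomas the inducible cyclooxygenase is known for its links to growth, invasion and inflammation.

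Promoter sequence is shown for PTGS2, PTGES2 and PTGER2, because PTGS2 and PTGES2 were the genes called higher in KO and PTGER2 was the one that was lower in every KO library, and because the targeted factors bind DNA with a GGAA core. Each line gives the 250 bases before the RefSeq start of the gene on GRCh38.p14, 5′ to 3′ in the direction of transcription; capitals mark GGAA, its reverse complement TTCC, and TATAAA. They lie at chr1:186680424-186680673 (PTGS2, minus strand), chr9:128128441-128128690 (PTGES2, minus strand) and chr14:52314062-52314311 (PTGER2, plus strand).
PTGS2: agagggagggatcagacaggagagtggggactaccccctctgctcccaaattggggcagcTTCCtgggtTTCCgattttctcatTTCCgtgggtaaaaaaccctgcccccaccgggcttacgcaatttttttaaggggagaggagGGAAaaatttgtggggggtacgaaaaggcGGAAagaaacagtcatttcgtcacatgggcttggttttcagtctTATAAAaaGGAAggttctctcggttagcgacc
PTGES2: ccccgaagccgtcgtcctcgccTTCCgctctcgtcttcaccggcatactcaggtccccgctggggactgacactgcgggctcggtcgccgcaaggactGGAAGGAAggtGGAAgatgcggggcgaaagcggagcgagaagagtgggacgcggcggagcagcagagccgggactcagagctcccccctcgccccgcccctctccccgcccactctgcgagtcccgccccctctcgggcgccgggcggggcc
PTGER2: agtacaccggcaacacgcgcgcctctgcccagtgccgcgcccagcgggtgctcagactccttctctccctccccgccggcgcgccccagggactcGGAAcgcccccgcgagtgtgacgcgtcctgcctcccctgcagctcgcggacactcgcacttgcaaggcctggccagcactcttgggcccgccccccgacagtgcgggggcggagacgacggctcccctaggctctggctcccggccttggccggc

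The motif counts were made on both strands over RefSeq windows of 300 bases, 250 before and 50 after the start, which were found for all 9 genes. The PTGS2 window held 7 GGAA cores, 6 of them in the stretch printed above, and 8.4% of the 27305 windows in the table held as many or more. Its TATAAA began 32 bases before the start; 12% of all windows held that motif. The PTGES2 window held 4 cores, and 46% of all windows held as many or more. Of these 4, 3 lie close together from 152 bases before the start. The PTGER2 window held 1, at 155 bases before the start. The others held 6 (PTGER4) or 3 (PLA2G4A, PTGS1, PTGES, PTGES3 and HPGD). As many or more were held by 16.3% and 66.1% of all windows. The core is present in 95.5% of all windows, so its presence sets no gene apart. The longer ETS sequence CCGGAAG, which contains the core, was found in the HPGD window alone among the 9, 186 bases before the RefSeq start, and in 10.7% of all windows. RefSeq and GENCODE place the starts of several of these genes differently, those of HPGD and PTGER4 the most. The HPGD and PTGER4 windows (174522439 to 174522738 and 40679665 to 40679964) lie wholly inside the GENCODE gene spans given below. The 250 bases before the RefSeq start lie partly inside the GENCODE span for PTGES3 (56688285 to 56688534) and, by fewer bases, for PTGES2. None of the 9 windows held the AP-1 sequence TGANTCA (7.76% of all windows) or TGACGTC (3.63%), 1 form of the cyclic AMP element. Shorter or variant forms were not searched for, so these counts do not show that a window lacks such an element. PTGS1 also had TATAAA, on the opposite strand. These are matches of letters, not measured binding.

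Library totals ran from 18042601 to 23232770 counts. The targeted genes were measured as a check of the labels. ETV4 counts were 2016, 1761 and 2151 in the control and 1224, 1185 and 1163 in the KO libraries, ETV1 was lower in each KO library as well, and ETV5 was at 112 ± 4.77 CPM in control and 113 ± 1.22 CPM in KO (SD, n = 3). CPM are counts per 1000000 counts of a library, with library sizes scaled by TMM factors. All 7 markers of a mesenchymal-type breast cancer line passed the filter (VIM, CD44, MSN, CAV1, AXL and the keratins KRT8 and KRT18). Of 7 hormone receptor or luminal markers, 4 passed as well: ERBB2, GATA3, FOXA1 and EPCAM. These 7 summed to 86.7 to 98.1 CPM in control and 86.8 to 94.6 CPM in KO, with ERBB2 at 61.2 ± 3.46 and 55.6 ± 1.52 CPM. The hormone receptors ESR1 and PGR had at most 1 count in any library, and CDH1 at most 5. Markers of other cell types were low: 6 fibroblast markers summed to 13.2 to 13.5 CPM in control and 11.9 to 13.9 CPM in KO, and 5 endothelial markers, with CDH5 at 0 in every library, to 9.72 to 11.0 and 5.88 to 8.45 CPM. The 6 blood cell markers, with CD3E at 0 in every library and PTPRC at 4 to 11 counts, summed to 6.65 to 8.07 CPM in control and 2.70 to 3.24 CPM in KO, of which LYZ supplied 5.76 to 6.24 and 1.28 to 1.81 CPM. The part of these cells in the results below was not tested. Fewer cells with a transcript and less of it per cell cannot be told apart in such bulk libraries. Replicate 3 of both groups stood apart from replicates 1 and 2: over 10032 genes, the deviations of control replicate 3 from its group mean had r = 0.83 with those of KO replicate 3 and -0.67 and -0.62 with KO replicates 1 and 2 (across genes, which are not independent). Results are therefore also given without these 2 libraries.

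The 9 genes covered a wide range of levels per transcript length. In TPM, which divide the counts by exon length and scale every library to the same total, the control means ± SD (n = 3) ran from 456 ± 32.1 for PTGES3 over 84.4 ± 6.18 for PTGES2, 75.2 ± 1.83 for PTGES, 15.4 ± 1.25 for PTGS2, 12.7 ± 2.30 for PLA2G4A, 11.6 ± 0.48 for PTGER4, 4.27 ± 0.78 for PTGER2 and 1.16 ± 0.29 for HPGD down to 0.31 ± 0.17 for PTGS1. The control values of PTGS2 and PLA2G4A overlapped, as did those of PLA2G4A and PTGER4, so that the order of these 3 is not set beyond their spread; all other neighbours in the order did not overlap. In the KO libraries the order of the means was the same, but PTGS2, at 24.0, 25.8 and 29.5 TPM, lay above PLA2G4A at 14.1, 14.7 and 15.3 TPM, and no neighbours overlapped. PTGES3 alone supplied 72.2% to 73.2% of the counts of the 9 genes in control and 69.1% to 71.1% in KO.

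**Figure D1:**
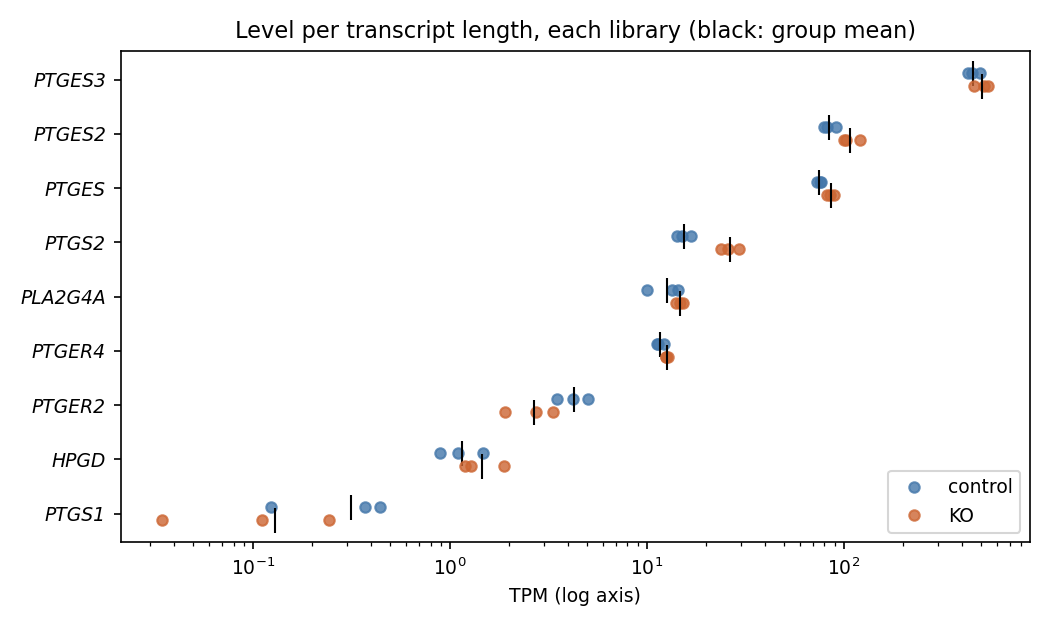
Level per transcript length of the 9 prostaglandin genes, in TPM on a log axis, with 1 point per library (blue control, orange KO) and a black line at each group mean. PTGES3 lies highest at 430 to 544 TPM, PTGS1 lowest at 0.03 to 0.44 TPM, and PTGS2 lies at 14.3 to 16.8 TPM in control and 24.0 to 29.5 TPM in KO.

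The comparison of KO with control asks which steps of the pathway differ when the ETS factors are targeted. The genes were proposed with the results of this comparison known, so their differences are descriptions, without p-values, and support nothing further. Of the 8 genes past the filter, 7 had a positive and 1 a negative log2 fold change (KO over control), with a median of 0.19, against a median of 0.00 over all 14704 genes tested. PTGS2 and PTGES2 passed the threshold of edgeR's quasi-likelihood test (adjusted p under 0.05 over all genes), both higher; 3.28% of all genes tested were called higher, 6.42% lower and 9.70% in either direction. None was called lower; at an unadjusted p under 0.05, 3 were higher and 1 lower, as were 1646 and 2082 of the 14704 genes tested. DESeq2 called 2 higher and 0 lower, where it called 4.03% of all genes higher, 6.57% lower and 10.6% in either direction. With the replicate number as a block in the fit, 4 were higher (PTGS2, PTGES, PTGES2 and PTGES3) and 1, PTGER2, lower, where 17.2% of all genes were higher, 16.7% lower and 33.9% either. Without both replicate-3 libraries 3 were higher (PTGS2, PTGES2 and PTGES3) and 0 lower, beside 11.7%, 13.7% and 25.5% of all genes. For 5 of the 8, 4 higher and 1 lower in KO, no KO value lay within the control range or the reverse; the same held for 31.7% of all genes tested, 14.9% higher and 16.8% lower. Nothing is read from these counts, since the choice of the genes used this contrast.

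**Figure D2:**
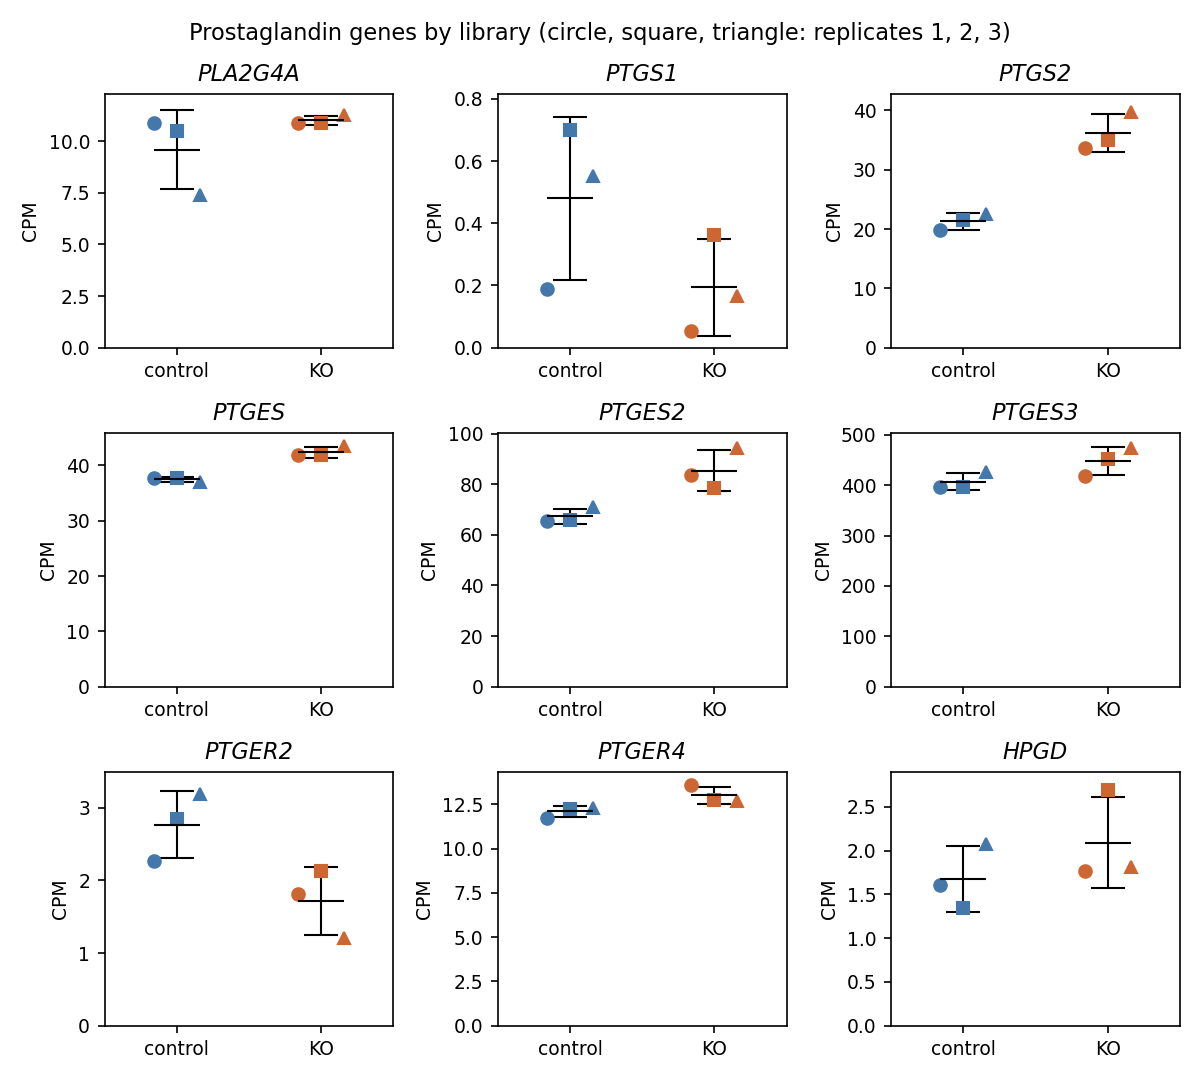
CPM of each of the 9 genes in every library, each panel from 0 on its own linear scale. Circles, squares and triangles are replicates 1, 2 and 3, and black bars give the mean ± SD of 3 libraries; PTGS2 goes from 19.8 to 22.5 CPM in control to 33.7 to 39.8 CPM in KO.

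The first step, release of arachidonic acid, is the work of PLA2G4A, the calcium-dependent cytosolic phospholipase A2 (ENSG00000116711, GRCh38 chromosome 1, 186828953 to 186988981, plus strand). Its values were 10.9, 10.5 and 7.39 CPM in control replicates 1, 2 and 3 and 10.9, 10.9 and 11.3 CPM in the KO libraries. The KO libraries were close together, and control replicate 3 was the single low library. The log2 fold change was 0.20 (SE 0.15), 0.04 (SE 0.11) without control replicate 3, and 0.02 (SE 0.12) without both replicate-3 libraries. PLA2G4A is the neighbour of PTGS2 among these genes, with 148.5 kb between them.

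The 2 cyclooxygenases were counted at very different depths. PTGS2, the inducible enzyme (ENSG00000073756, chromosome 1, 186671791 to 186680427, minus strand), had 419, 401 and 531 counts in the control and 630, 674 and 724 in the KO libraries. Scaled to library size these were 19.8, 21.6 and 22.5 CPM and 33.7, 34.9 and 39.8 CPM. Every KO library lay above every control library. The log2 fold change was 0.76 (SE 0.09), a 1.70-fold higher level, and it was 0.77, 0.69 and 0.82 between same-numbered libraries. It stayed between 0.71 and 0.82 and past the threshold in all 11 alternative fits, among them the 6 that leave out 1 library. The share of all genes called higher in those 6 was 0.923%, 0.903% and 2.33% without control replicates 1, 2 and 3 and 1.21%, 1.16% and 5.18% without KO replicates 1, 2 and 3, and it was 3.58% with RLE scaling and 2.50% with no filter. PTGS1, the constitutive enzyme best known from platelets and the stomach lining (ENSG00000095303, chromosome 9, 122370530 to 122395703, plus strand), had 4, 13 and 13 counts in control and 1, 7 and 3 in KO. The groups overlapped. The limit that a count of 0 allows is 3 counts, or 0.127 to 0.165 CPM here, so 2 of the KO libraries lay at or under it and no fold change is given for PTGS1. Per length, PTGS2 exceeded PTGS1 in every library, by 33.9-fold or more.

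A long noncoding RNA, PACERR, starts close to PTGS2 on the opposite strand and is known as a regulator of its transcription. In RefSeq (GRCh38.p14, chromosome 1, 186680654 to 186681446) it begins 230 bases beyond the PTGS2 start, inside the promoter stretch printed above. It had 8, 9 and 9 counts in control and 18, 13 and 23 in KO. The groups did not overlap, and the fitted log2 fold change was 1.21 (SE 0.37). With edgeR's adjusted p = 0.0749 PACERR did not pass the threshold; over the 11 alternatives the adjusted p ran from 0.0205, with the replicate block, where it passed, to 0.219. The annotated spans of PTGS2 and PACERR do not overlap.

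Among the PGE2 synthases, PTGES is the membrane enzyme that is usually induced together with PTGS2 (ENSG00000148344, chromosome 9, 129738331 to 129753047, minus strand). It was at 37.7, 37.7 and 37.0 CPM in control and 41.8, 41.8 and 43.4 CPM in KO. The groups did not overlap and each was tight, but the shift was small, with a log2 fold change of 0.18 (SE 0.06). PTGES had the smallest spread between replicates of the 8 genes after the filter, 0.025 on the log2 scale, against a median of 0.14 over all genes tested. The ratio of PTGES to PTGS2 in TPM was 5.30, 4.85 and 4.56 in control and 3.45, 3.32 and 3.03 in KO, so that the synthase was in smaller excess in each KO library.

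PTGES2, a second membrane-associated synthase (ENSG00000148334, chromosome 9, 128120693 to 128128462, minus strand), was at 65.3, 65.8 and 70.8 CPM in control and 83.6, 78.5 and 94.2 CPM in KO. All KO libraries were higher, with replicate 3 the highest of its group on both sides. The log2 fold change was 0.34 (SE 0.08). It kept its direction in all 11 alternatives (0.29 to 0.41) but fell short of the threshold when control replicate 1 or 2, or KO replicate 1, was left out. The antisense row PTGES2-AS1 had 0 to 5 counts per library.

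PTGES3 encodes p23, a co-chaperone of HSP90 that also has PGE2 synthase activity (ENSG00000110958, chromosome 12, 56663341 to 56688408, minus strand). Its values were 397, 397 and 426 CPM in control and 418, 452 and 474 CPM in KO. The groups overlapped, since KO replicate 1 lay below control replicate 3. The log2 fold change was 0.14 (SE 0.07), and 0.14 (SE 0.03) with the replicate block, where PTGES3 passed the threshold. The table also lists processed copies of the gene, of which PTGES3P1 had 10 to 36 counts per library, so the division of reads between them is uncertain at that scale.

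The receptors were measured at low levels. PTGER4, which encodes EP4 (ENSG00000171522, chromosome 5, 40679498 to 40693735, plus strand), was at 11.8, 12.3 and 12.3 CPM in control and 13.6, 12.8 and 12.7 CPM in KO. Its KO values lay just above its control values without overlap, and the log2 fold change of 0.10 (SE 0.09) was about the size of its error. The gene TTC33 lies across it on the other strand, with no exon in common. PTGER2, which encodes EP2 (ENSG00000125384, chromosome 14, 52314305 to 52328606, plus strand), had 48, 53 and 75 counts in control and 34, 41 and 22 in KO, or 2.27, 2.85 and 3.18 CPM and 1.82, 2.13 and 1.21 CPM. It was the only one of the 8 genes with a lower mean in KO, and the groups did not overlap. The log2 fold change was -0.68 (SE 0.25), but the differences between same-numbered libraries were unequal, at -0.30, -0.41 and -1.33. Without KO replicate 3 it was -0.47 (SE 0.25), and without both replicate-3 libraries -0.37 (SE 0.25). In TPM, EP4 transcripts outnumbered EP2 transcripts 3.24, 2.69 and 2.41 to 1 in the control libraries and 4.66, 3.75 and 6.56 to 1 in the KO libraries.

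HPGD, the dehydrogenase that inactivates PGE2 (ENSG00000164120, chromosome 4, 174490177 to 174523154, minus strand), had 34, 25 and 49 counts in control and 33, 52 and 33 in KO. These are 1.60, 1.34 and 2.08 CPM and 1.76, 2.70 and 1.81 CPM, with overlapping groups. The log2 fold change of 0.31 (SE 0.27) ran from 0.09 without KO replicate 2 to 0.59 without both replicate-3 libraries. PTGS2 exceeded HPGD 12.9-, 16.8- and 11.4-fold in the control TPM and 20.0-, 13.6- and 23.0-fold in the KO TPM, again with overlap.

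**Figure D3:**
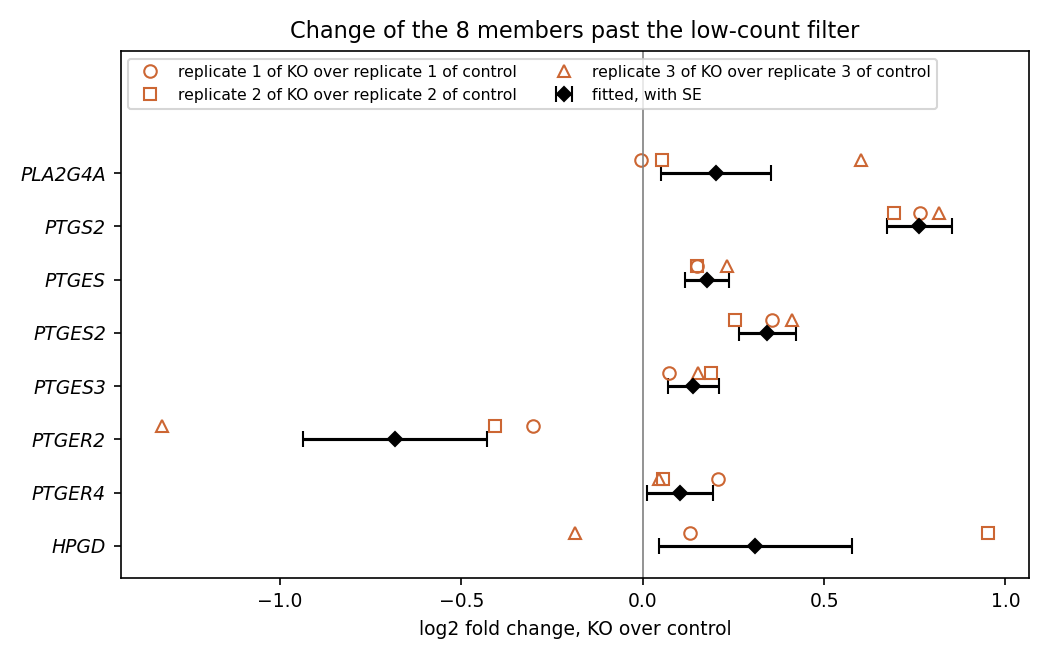
Log2 fold change (KO over control) of the 8 genes past the low-count filter: black diamonds with bars give the fitted value ± SE, and open symbols the difference between same-numbered libraries. The 3 PTGS2 differences lie at 0.69 to 0.82, while those of PTGER2, HPGD and PLA2G4A are spread more widely.

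The spread between replicates was widest for the thinly counted genes and PLA2G4A. The pooled SD within groups was 0.33 for PTGER2 and 0.31 for HPGD on the log2 scale, the genes with the fewest counts past the filter, and 0.22 for PLA2G4A, which was counted about as deeply as PTGER4, against 0.11 for PTGS2, 0.10 for PTGES2, 0.08 for PTGES3 and 0.05 for PTGER4. Over the 6 libraries, the genes most like PTGS2 in log2 CPM, among 10805 with a mean of at least 5 CPM, were ITGB1BP1 (Pearson r = 0.996), DDX18 (0.996), ARRDC3 (0.995), CTDSPL2 (0.994) and PUS7 (0.993). Among those most opposed to it were HDAC5, FADS2, DBNDD1 and LRRC8A (each -0.999). These 6 points share libraries and fall into the 2 groups, so r is a description of shared shape.

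The rest of the pathway was read from 10 lists of other genes, written from general knowledge with the earlier results known. Of 111 genes in the table, 82 passed the filter and 16 had no count in any library. After edgeR's quasi-likelihood test 5 were higher and 5 lower in KO, or 12.2% of those tested beside 9.70% of all genes, which is near the background; the median log2 fold change was 0.02. The control and KO groups did not overlap for 29 of the 82, beside 31.7% of all genes tested. With the replicate block 18 were higher and 12 lower, and without both replicate-3 libraries 11 and 13. With that block 33.9% of all genes were called, and without those libraries 25.5%.

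Among genes that release arachidonic acid or return it to membranes, 1 of 12 tested fell and none rose, beside 6.42% and 3.28% of all genes. At an unadjusted p under 0.05 none was higher and 2 were lower, beside 1646 and 2082 of all 14704 genes. MGLL, the lipase that splits the endocannabinoid 2-arachidonoylglycerol into glycerol and arachidonic acid, fell from 64.0 ± 6.73 to 38.0 ± 5.71 CPM (adjusted p = 0.00585 in edgeR), with -0.75 as the log2 ratio of KO to control (SE 0.12). Its adjusted p stayed under 0.05 in all 11 alternatives, at most 0.0333. PLA2G6, a calcium-independent phospholipase, was at 4.19 ± 0.31 and 2.91 ± 0.75 CPM and did not pass (edgeR adjusted p = 0.148). ANXA1, which restrains phospholipase A2, was abundant at 715 ± 49.1 and 711 ± 30.1 CPM. The secreted phospholipases PLA2G2A, PLA2G3, PLA2G5 and PLA2G10 had no count in any library.

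Of the other prostanoid synthases, 1 of 5 tested rose and 1 fell, beside 3.28% and 6.42% of all genes. TBXAS1, thromboxane synthase, which uses the same PGH2 as the PGE2 synthases, was at 9.25, 10.1 and 10.1 CPM in control and 3.80, 4.77 and 5.50 CPM in KO. It fell 2.09-fold (edgeR adjusted p = 0.00310; -1.07 ± 0.15 as log2 fold change ± SE), and passed in all 11 alternatives with an adjusted p of at most 0.0210. The summed blood cell markers given above were also lower in KO, through LYZ at 122, 113 and 147 counts in control and 24, 30 and 33 in KO. CD14, the other marker past the filter, was at 0.87 ± 0.42 and 0.95 ± 0.23 CPM with overlapping groups, and PTPRC, CD3E, AIF1 and CD79A were below the filter with overlapping groups. The part of blood cells in the TBXAS1 value was not tested. AKR1B1, an aldose reductase that can make prostaglandin F2 alpha, rose from 122 ± 13.4 to 161 ± 16.2 CPM (adjusted p = 0.0359 in edgeR), with 0.41 as the log2 ratio of KO to control (SE 0.10), and missed the threshold when any 1 control library, or KO replicate 1 or 2, was left out (adjusted p of up to 0.123). The synthases of prostaglandin D2, PTGDS and HPGDS, had no count in any library, and the prostacyclin synthase PTGIS had 2 counts at most.

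The remaining prostanoid receptors were thinly counted. Of 7, PTGDR and PTGIR had no count in any library, PTGER1, PTGER3 and PTGDR2 did not pass the filter with at most 7 counts, and PTGFR and the thromboxane receptor TBXA2R were tested. With 44 to 71 counts per library, TBXA2R was at 3.01 ± 0.27 CPM in control and 2.71 ± 0.54 CPM in KO (edgeR adjusted p = 0.698). Neither passed edgeR's or DESeq2's test, and neither had an unadjusted p under 0.05. In the list for transport and reduction of prostaglandins none of 5 passed with either tool or at an unadjusted p under 0.05. There the efflux pump ABCC4 was at 67.2 ± 6.31 and 60.8 ± 5.23 CPM, the reductase PTGR1 at 30.1 ± 3.53 and 33.2 ± 3.30 CPM, and the uptake carrier SLCO2A1 had no count.

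In the lipoxygenase and leukotriene branch 11 of 14 genes did not pass the filter, among them ALOX5, ALOX12 and ALOX15 with no count in any library. The 3 tested did not pass with edgeR or DESeq2 (1 lower at an unadjusted p under 0.05, beside 2082 of all 14704 genes). LTA4H, which makes leukotriene B4, was at 136 ± 3.49 and 123 ± 0.69 CPM (edgeR adjusted p = 0.130), and its receptor gene LTB4R at 29.4 ± 3.07 and 26.0 ± 5.76 CPM. LTA4H passed as lower with the replicate block (edgeR adjusted p = 0.00284) and without both replicate-3 libraries.

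Below EP2 and EP4, 18 genes were tested, for the stimulatory G protein, adenylyl cyclases, protein kinase A, CREB and arrestins. None passed with edgeR or DESeq2, and 1 was higher at an unadjusted p under 0.05, beside 1646 of all 14704 genes. GNAS, the G protein subunit, was at 824 ± 129 and 779 ± 87.8 CPM, and PRKAR1A, a regulatory subunit of protein kinase A, at 230 ± 13.3 and 222 ± 9.98 CPM. Without both replicate-3 libraries GNAS (edgeR adjusted p = 0.0306) and ADCY6 passed as lower and PRKAR2A as higher, beside 13.7% and 11.7% of all genes. With the block 3 were higher (PRKACB, PRKAR2A and CRTC1), beside 17.2% of all genes. Among 8 genes that cyclic AMP induces, 1 rose, beside 3.28% of all genes, and 7 did not pass. At an unadjusted p under 0.05 in edgeR, 5 were higher and 0 lower, beside 1646 and 2082 of all 14704 genes. With the block 2 of the 8 were higher, beside 17.2% of all genes. Without both replicate-3 libraries 1 was higher and 1 lower, beside 11.7% and 13.7%. AREG, an EGF receptor ligand, rose from 82.3 ± 10.5 to 106 ± 2.54 CPM (edgeR adjusted p = 0.0364; 0.37 ± 0.09 as log2 fold change ± SE) but missed the threshold when replicate 1 or 2 of either group was left out (adjusted p of up to 0.106). The orphan receptor gene NR4A1 was at 62.1, 68.0 and 82.1 CPM in control and 106, 74.0 and 135 CPM in KO, and NR4A2 at 76.0, 91.4 and 108 CPM and 136, 101 and 170 CPM. Both had overlapping groups and edgeR adjusted p of 0.173 and 0.150, while DESeq2 called both as higher, beside 4.03% of all genes.

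Of 11 transcription factors that are known to act on PTGS2, 2 fell, beside 6.42% of all genes, and 9 did not pass. At an unadjusted p under 0.05 in edgeR, 1 was higher and 4 were lower, beside 1646 and 2082 of all 14704 genes. JUN, an AP-1 subunit, fell from 305 ± 22.2 to 210.4 ± 28.0 CPM (adjusted p = 0.0118 in edgeR), with -0.54 as the log2 ratio of KO to control (SE 0.10), and NFATC2 fell from 18.2 ± 1.09 to 13.1 ± 0.45 CPM (edgeR adjusted p = 0.0134; -0.47 ± 0.09 as log2 fold change ± SE). JUN missed the threshold when KO replicate 1 or 2 was left out (adjusted p of up to 0.0603), and NFATC2 when control replicate 1 or 2, or KO replicate 1, was (up to 0.0734). Both are known as activators of PTGS2. With the block 4 factors were lower and 1 higher, beside 16.7% and 17.2% of all genes. Of 10 proteins that bind PTGS2 mRNA, 1 rose and 1 fell, beside 3.28% and 6.42% of all genes. With the block 3 rose and 2 fell, beside 17.2% and 16.7%. At an unadjusted p under 0.05 in edgeR, 1 was higher and 2 were lower, beside 1646 and 2082 of all 14704 genes. CELF2, whose known effects on PTGS2 mRNA include holding back its translation, fell from 37.1 ± 2.95 to 22.5 ± 1.45 CPM (adjusted p = 0.00137 in edgeR). The log2 ratio of KO to control was -0.72 (SE 0.09), with an adjusted p of at most 0.0111 in all 11 alternatives. Translation was not measured. ZFP36L2, of the family that destabilises AU-rich mRNAs, rose from 66.3 ± 2.29 to 79.3 ± 1.34 CPM (edgeR adjusted p = 0.0251; 0.26 ± 0.06 as log2 fold change ± SE). It missed the threshold when any 1 control library, or KO replicate 1 or 2, was left out (up to 0.0880).

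Of HSP90 and the co-chaperones that work beside PTGES3, 2 of 9 rose with edgeR, beside 3.28% of all genes, and 7 with the replicate block, beside 17.2%. All 9 had a positive log2 fold change (median 0.15), that of PTGES3L being 0.03 and negative when control replicate 1 or 2, or KO replicate 2 or 3, was left out. Of all 14704 genes 7459 had a positive value. At an unadjusted p under 0.05, 4 of the 9 were higher, beside 1646 of all genes. HSP90AA1 went from 2481 ± 36.8 to 3194 ± 138 CPM (adjusted p = 0.00864 in edgeR), with 0.36 as the log2 ratio of KO to control (SE 0.06), and missed the threshold when control replicate 2 was left out (adjusted p = 0.0649). FKBP5 rose from 89.7 ± 6.49 to 121 ± 2.40 CPM (edgeR adjusted p = 0.00496; 0.43 ± 0.07 as log2 fold change ± SE) and passed in all 11 alternatives.

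**Figure D4:**
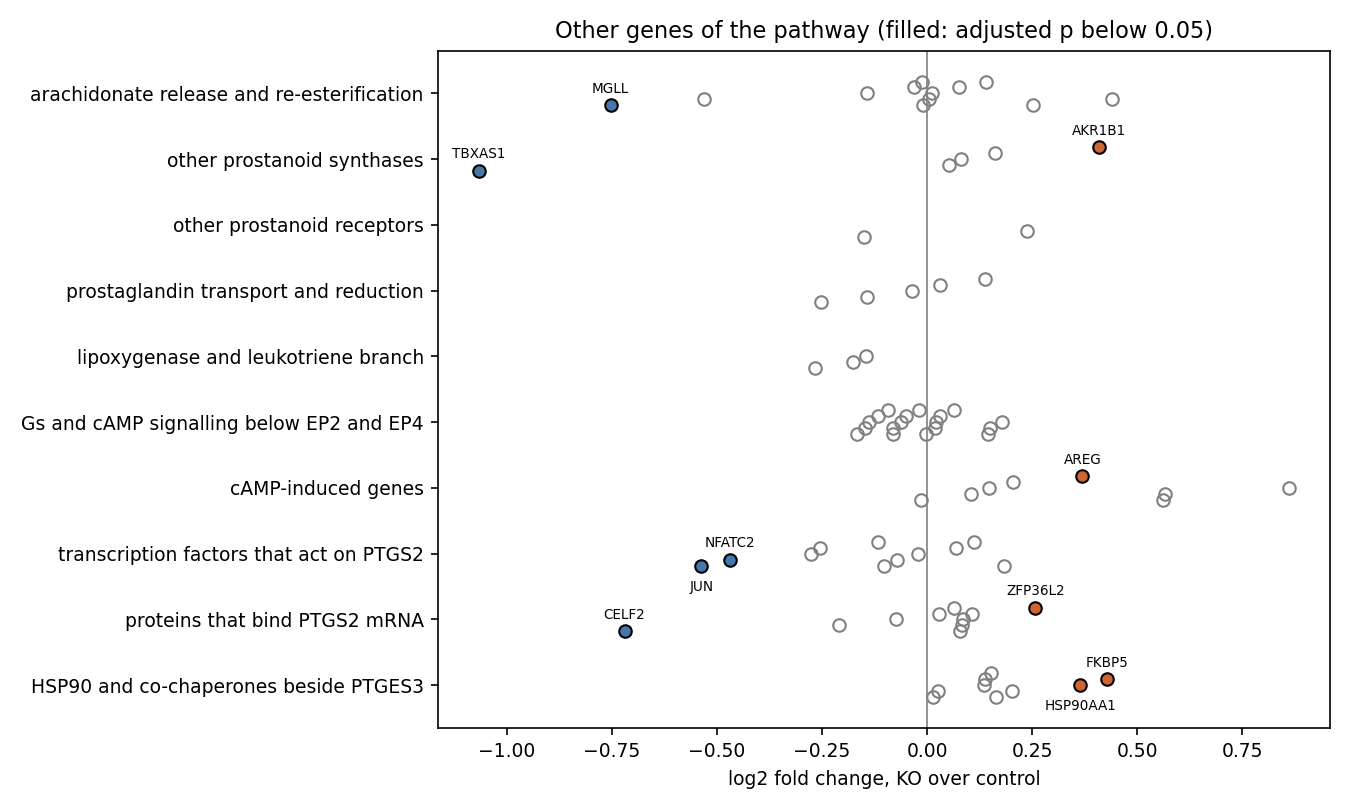
Log2 fold change (KO over control) of the 82 tested genes in 10 lists around the PGE2 genes, 1 point per gene and list; filled points passed edgeR's test at an adjusted p under 0.05 (orange higher, blue lower). TBXAS1, MGLL and CELF2 lie farthest to the left among the filled points, at -1.07, -0.75 and -0.72.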

How the data were processed

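Polyadenylated RNA of MDA-MB-231 cells grown in collagen I was sequenced in 6 libraries. The values are unnormalized gene counts as deposited by the authors. Build hg38, featureCounts, STAR 2.7.9a, R 4.1.1 and FastQC 0.11.9 are named in the submitters' processing notes, while the annotation, the strand setting and the treatment of multi-mapping reads were not stated. Columns were matched to samples by library name, groups come from the treatment label.

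The members and gene lists were chosen with earlier results of these data known. Genes were kept by filterByExpr (14704), scaled with TMM, and compared with edgeR 4.0.16 (quasi-likelihood test, robust, group as the single term, Benjamini-Hochberg, threshold 0.05) in R 4.3.3. SE is the log2 fold change over the root of F. TPM use GENCODE release 29 exon lengths, found for rows with at least 97.1% of the counts of any library; positions are from the same release and promoters from RefSeq (GRCh38.p14). Alternatives were RLE scaling, DESeq2 1.42.0, no filter, a replicate block, each library left out, and both replicate-3 libraries left out. The procedure was tested on simulated data that held no shift shared by same-numbered libraries. That test therefore does not cover the replicate-3 pattern of the real data.

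The labels do not pair the samples, and the data bear out the shared number for replicate 3 only. Deviations of same-numbered libraries correlated at 0.55, 0.45 and 0.83 over genes. Replicates 1 and 2 of the control each correlated best with the other number in KO (0.59 and 0.58). Deviations within a group sum to 0, so a shift shared by the replicate-3 libraries can by itself make the values among replicates 1 and 2 positive. The block and the differences between same-numbered libraries are therefore descriptions. Genes described are the 9 members, the 3 targets, rows named after members, PACERR, the genes most like PTGS2 (1 gene that this rule names is not reported here) and, per list, up to 4 past the threshold or else the 2 with the highest CPM; PLA2G6, ANXA1, NR4A1, NR4A2, PTGDS, HPGDS, PTGIS and the genes listed as not counted were added after their values were seen.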

Additional observations from a re-analysis of the deposited data

How the results depend on the processing

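The log2 fold changes of the 8 members past the filter kept their sign in all 11 alternatives. With the replicate block 2522 genes were higher and 2461 lower in KO, against 483 and 944 in the group fit; of the members 4 were higher and 1 lower, and of the other pathway genes 18 and 12. The block changed the calls of PTGES, PTGES3, PTGER2, PACERR, PLA2G6, ABCC4, LTA4H, PRKACB, PRKAR2A and CRTC1, which then passed, and of no other pathway gene named. Without both replicate-3 libraries 1730 genes were higher and 2023 lower, and 11 and 13 pathway genes. DESeq2 called 8 pathway genes higher, beside 593 of all genes tested. With 1 library left out, 136 to 778 genes were higher and 436 to 964 lower, 1 to 2 members higher and 0 lower, and 1 to 5 pathway genes higher and 3 to 6 lower. Some fold changes near 0 changed sign: with 1 library left out, PTGFR ran from -0.21 (without control replicate 3) to 0.52, GNAS from -0.21 to 0.031 (without KO replicate 3), PTGES3L from -0.16 (without control replicate 2) to 0.30, and PTGES3P1 from -0.40 (without KO replicate 1) to 0.50; PTGFR was at -0.23 without both replicate-3 libraries. The cause of these shifts was not tested. Depth limits PTGS1, PTGER2, HPGD and PACERR, which had 1 to 75 counts per library.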
